A study of Mus musculus with 4 samples.

Results

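Progranulin (Grn), its partner prosaposin (Psap), the protease inhibitors Slpi and cystatin C (Cst3), and the lysosomal proteases cathepsins S, B, D and L (Ctss, Ctsb, Ctsd, Ctsl) and legumain (Lgmn) were followed in IgA-positive cells of the mouse small intestine. These 9 genes, of 18193 named on the array, were picked by symbol with their difference between the cell fractions already known, so that difference is described here and not tested. They are read by 17 of the 45101 probe sets, and each of the 9 passed the low-signal filter, set at a signal of about 9.51. The cells came from untreated wild-type female Balb/c mice aged 9 weeks and had been separated by surface CD11b, an integrin chain best known from myeloid cells. The groups are CD11b-positive IgA-positive cells and CD11b-negative IgA-positive cells, with 2 arrays each. In each fraction the RNA of replicate 1 (1 µg) was labelled with the One-Cycle kit, and that of replicate 2 (0.1 µg) with the 3' IVT Express kit. The labels give neither the purity of the sort nor the number of animals behind an array. No label says that both arrays of a fraction stem from separate mice, so p-values here reflect array-to-array spread alone, and that spread may be technical.

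Progranulin is a secreted protein built of cysteine-rich granulin repeats, which also travels to lysosomes, either on the receptor sortilin or bound to prosaposin, and is cut there into granulins. Prosaposin is the precursor of the saposins, small activators of sphingolipid breakdown. Slpi inhibits elastase and cathepsin G of neutrophils and shields progranulin from elastase. Cystatin C is a secreted inhibitor of cysteine cathepsins, cathepsin D is an aspartic protease, and legumain cuts after asparagine and processes cathepsins. Many lysosomal genes are controlled by the transcription factor TFEB through promoter elements around the core CACGTG.

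The promoters of the 2 genes with the largest differences, Grn and Slpi, and of Ctsd, the member with the most such cores, show how differently these genes are laid out. Each is RefSeq sequence of build GRCm38.p6 in the gene's direction, from 250 bases before to 50 bases after the start site, with CACGTG in capitals. The Grn window is chr11:102430257-102430556 on the plus strand, the Slpi window chr2:164356458-164356757 and the Ctsd window chr7:142387778-142388077, the last 2 on the minus strand.
Grn: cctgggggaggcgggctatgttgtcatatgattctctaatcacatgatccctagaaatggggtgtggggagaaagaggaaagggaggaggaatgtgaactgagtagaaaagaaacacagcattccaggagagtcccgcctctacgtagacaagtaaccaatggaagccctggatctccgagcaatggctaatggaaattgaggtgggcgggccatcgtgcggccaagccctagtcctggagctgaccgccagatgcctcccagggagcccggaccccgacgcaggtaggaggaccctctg
Slpi: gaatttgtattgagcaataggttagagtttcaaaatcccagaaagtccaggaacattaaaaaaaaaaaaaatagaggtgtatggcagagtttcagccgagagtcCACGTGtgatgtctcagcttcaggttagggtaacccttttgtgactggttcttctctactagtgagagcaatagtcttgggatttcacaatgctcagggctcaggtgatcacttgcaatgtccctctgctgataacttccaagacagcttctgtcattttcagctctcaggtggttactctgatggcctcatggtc
Ctsd: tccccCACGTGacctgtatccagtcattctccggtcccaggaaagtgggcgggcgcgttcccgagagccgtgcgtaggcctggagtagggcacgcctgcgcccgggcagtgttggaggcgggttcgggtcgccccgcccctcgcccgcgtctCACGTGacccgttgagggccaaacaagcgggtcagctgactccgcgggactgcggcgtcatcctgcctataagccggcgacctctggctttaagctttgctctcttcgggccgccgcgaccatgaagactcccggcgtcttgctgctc
The Ctsd window holds 33 CpG pairs at 67.3% GC with cores starting at -245 and -98, the Grn window 11 CpG pairs at 56.3% GC with no core, and the Slpi window 2 CpG pairs at 43.3% GC with 1 core at -146. The median window over all promoters had 7 CpG pairs and 52.7% GC. CACGTG, which reads the same on both strands, lay in the windows of 4 of the 8 members with a promoter in the table (Slpi, Ctsd, Ctsl and the second of 2 Lgmn promoters), against 8.09% of all 27025 genes. The longer form TCACGTG, searched on both strands and overlapping the first, lay in those of Ctsd and Lgmn and of 4.29% of all genes. These are matches of letters, not measured binding.

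Grn, the precursor of the granulins, had the largest difference of the 9. It had signals of 204 and 268 in the CD11b-positive arrays, against 995 and 1085 in the CD11b-negative arrays, with the One-Cycle array first in each pair here and below. Both CD11b-positive arrays thus lay far below both CD11b-negative arrays, and the fraction means were 236 ± 45.1 and 1039.9 ± 63.2 (SD, n = 2 each), a log2 difference of -2.14 on the log2(signal + 3) scale. Within the kits it was -2.27 (One-Cycle) and -2.0 (3' IVT Express). These are bulk RNA samples, in which fewer cells of a type and less RNA per cell cannot be told apart.

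All 3 Grn probe sets were lower with both kits, but by different amounts. The probe set used, the brightest, is one whose name marks possible cross-hybridisation (1438629_x_at). The gene-specific 1448148_at had signals of 121 and 97.4 in the CD11b-positive arrays, against 328 and 304 in the CD11b-negative arrays. On it the difference was -1.51, or 2.85-fold lower, where the brightest gave 4.40-fold. The remaining one, 1456567_x_at, was at 113 and 87.2 against 315 and 405, a log2 difference of -1.82. The groups did not overlap on any of the 3, while the size of the Grn difference depends on which is read.

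Slpi, the secreted inhibitor of leukocyte serine proteases, is read by 1 probe set. Its signals were 1793 and 1646 in the CD11b-positive arrays, against 4892 and 4182 in the CD11b-negative arrays. The groups lay apart, and the log2 difference of -1.39 (2.63-fold lower) hardly differed between the kits, at -1.45 and -1.34.

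Cst3, the secreted brake on cysteine cathepsins, had signals of 1744 and 2123 in the CD11b-positive arrays, against 3085 and 3439 in the CD11b-negative arrays. The higher CD11b-positive array was still below the lower CD11b-negative one, and the difference was -0.76 (1.69-fold lower), with -0.82 and -0.70 within the kits. Grn, Slpi and Cst3 were thus the 3 members at least 1.5-fold lower in the CD11b-positive fraction, where 9.13% of all 12645 genes tested were. Since the members were chosen with this contrast known, nothing is read from that share.

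**Figure D1:**
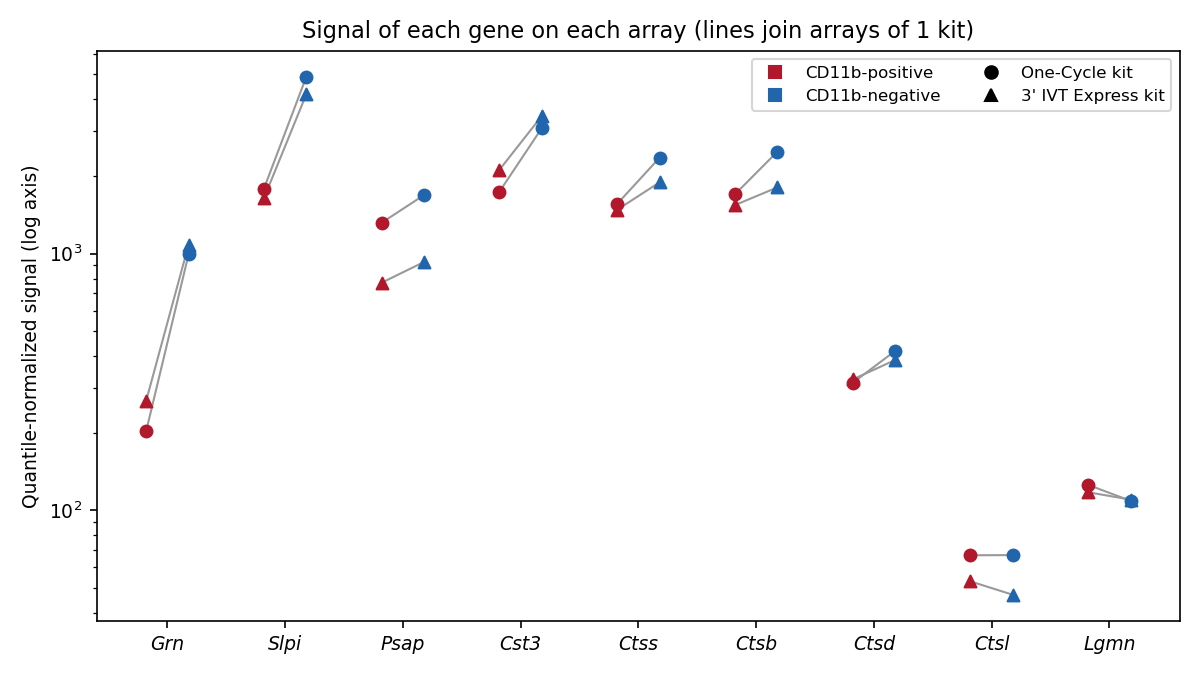
Quantile-normalized signal (log axis) of the brightest probe set of each gene on each of the 4 arrays, CD11b-positive in red at left and CD11b-negative in blue at right, with lines joining the arrays of 1 labelling kit. Grn, Slpi and Cst3 slope steeply upward to the CD11b-negative side with both kits, Ctss, Ctsb and Ctsd less so, Ctsl not, and Psap splits by kit more than by fraction.

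Among the proteases, Ctss, the cathepsin that trims the invariant chain of MHC class II in antigen-presenting cells, stood at 1563 and 1483 in the CD11b-positive arrays, against 2365 and 1897 in the CD11b-negative arrays, a log2 difference of -0.48. Ctsd, an aspartic protease, had 314 and 324 in the CD11b-positive arrays, against 418 and 385 in the CD11b-negative arrays (-0.33). Both were lower in the CD11b-positive fraction without overlap, with gaps of 1.39-fold and 1.26-fold that are far smaller than those of Grn and Slpi.

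Ctsb, a cysteine cathepsin, had 1702 and 1546 on its brightest probe set in the CD11b-positive arrays, against 2496 and 1812 in the CD11b-negative arrays (-0.39). Its 5 probe sets did not go one way. Probe set 1417492_at was lower with both kits (-0.38), 1417491_at was higher with both (0.12), and 1448732_at and 1444987_at had opposite signs in the 2 kits. Of these, 1417492_at, 1417491_at and 1444987_at were dim, with signals of 21.7 to 44.9, while 1448732_at was at 366 to 1418. The mean of all 5, which weighs dim and bright ones alike, was at -0.11, so that the lower Ctsb signal rests on 2 of them.

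Ctsl and Lgmn did not go with the others. Ctsl, a cysteine endopeptidase of lysosomes, had 66.9 and 52.9 in the CD11b-positive arrays, against 67.0 and 46.9 in the CD11b-negative arrays, and the groups overlapped (log2 difference 0.08). Its other probe set lay below the filter. Lgmn, the asparaginyl protease, had 126 and 118 in the CD11b-positive arrays, against 109 and 110.2 in the CD11b-negative arrays, a difference of 0.15 without overlap. It was the 1 member higher with both kits.

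On the quantile-normalized scale Psap differed more by kit than by fraction. It had 1320.2 and 771 in the CD11b-positive arrays, against 1692.5 and 929 in the CD11b-negative arrays, so the groups overlapped although the CD11b-positive array was the lower one in each kit (-0.36 and -0.27). Its second probe set gave -0.43 and -0.10.

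In all, 7 of the 9 members were lower with both kits, 1 was higher with both and Ctsl had opposite signs; over all genes tested 30.5% were lower and 31.6% higher with both kits. Both CD11b-positive arrays were below both CD11b-negative arrays for 6 members and above them for 1, against 17.3% and 18.3% of all genes. The median log2 difference of the 9 was -0.39, beside 0.00 over all genes tested. It was -0.55 within the One-Cycle kit and -0.27 within the 3' IVT Express kit, and each of the 7 lower members was lower by more with the One-Cycle kit on the probe set used. The other 2 Grn probe sets went the other way in this, with -1.46 and -1.41 in the One-Cycle kit and -2.18 and -1.61 in the 3' IVT Express kit.

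**Figure D2:**
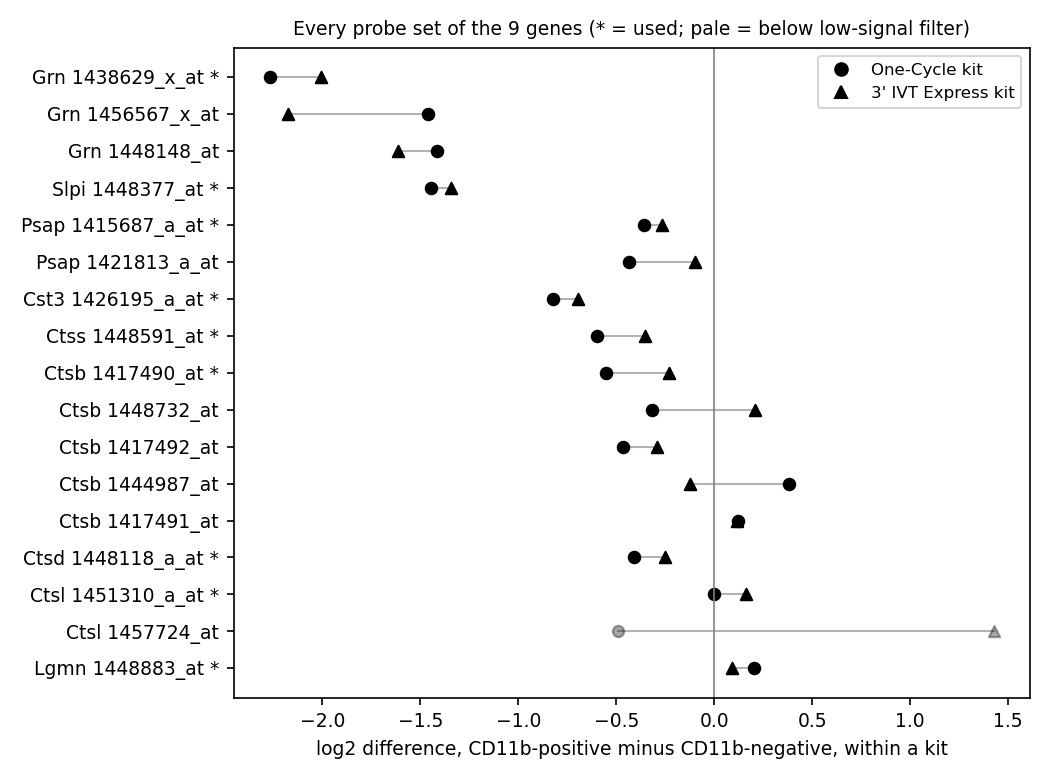
Log2 difference (CD11b-positive minus CD11b-negative) within the One-Cycle kit (circles) and the 3' IVT Express kit (triangles) for all 17 probe sets of the 9 genes, with an asterisk on the probe set used and pale symbols for the 1 below the low-signal filter. All 3 Grn probe sets and that of Slpi lie left of -1.3 with both kits, while those of Ctsb lie on both sides of 0.

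The direction of the smaller differences rests on how the arrays are scaled. On the signals as deposited the median of all genes was 0.42 log2 higher in the CD11b-positive fraction, and 66.0% of genes were higher there with both kits. On that scale only Grn, Slpi and Cst3 of the 9 were lower with both kits; Psap, Ctss, Ctsb, Ctsd, Ctsl and Lgmn were higher with both. Deposited Grn signals were 211 and 352 in the CD11b-positive arrays, against 618 and 1079 in the CD11b-negative arrays. Deposited Ctss signals were 1582 and 2014 in the CD11b-positive arrays, against 1543 and 1924 in the CD11b-negative arrays. Relative to the median of all genes, the same 7 members were lower under every scaling tried.

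**Figure D3:**
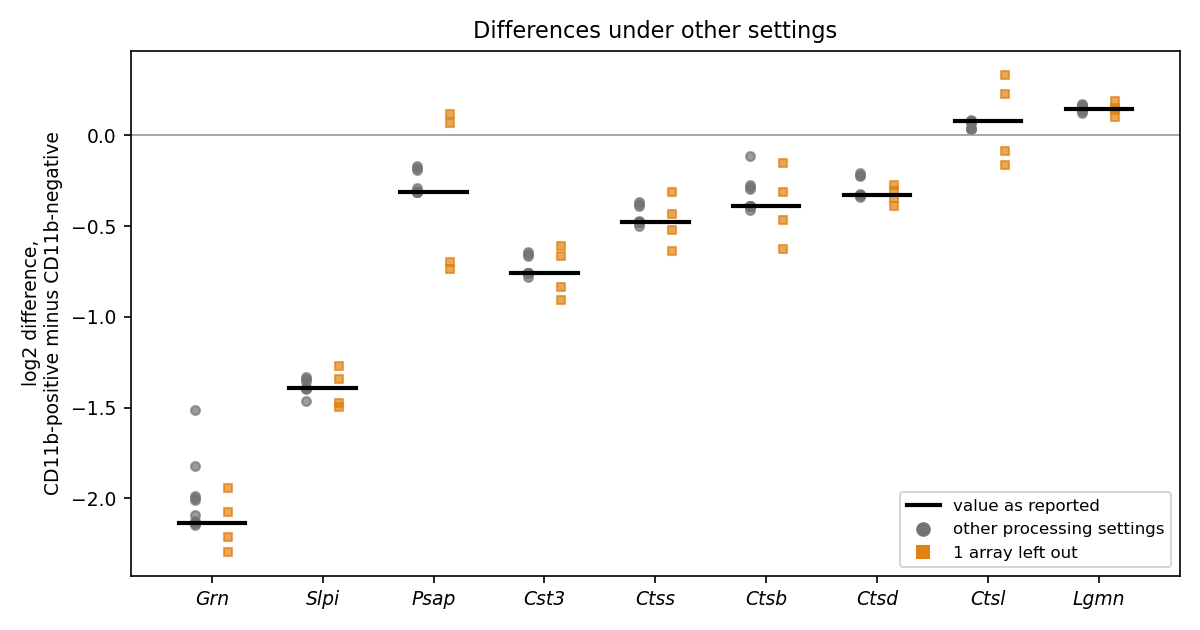
Log2 difference (CD11b-positive minus CD11b-negative) of each gene as reported (bars), under other processing settings (grey circles; scalings that shift all genes are given relative to their median) and with 1 array left out (orange squares). Grn stays between -2.30 and -1.51 and Slpi between -1.5 and -1.27, while Psap and Ctsl cross 0 when some single arrays are left out.

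The labelling kit was a comparison the choice of genes did not use. In a limma model with fraction and kit, Psap was lower with the 3' IVT Express kit by -0.82 on the log2 scale (SE 0.10, adjusted p = 1.25e-06), and lower in 2 of 2 fractions. Its second probe set went the same way, with 366 and 391 on the 3' IVT Express arrays of the CD11b-positive and CD11b-negative fractions, against 940.5 and 1271 on the One-Cycle arrays. Ctsb was also lower with that kit (-0.30, SE 0.10, adjusted p = 0.0335 by limma), though not once all its probe sets were averaged (0.107). Both calls come from a fit with 1 residual degree of freedom per gene, which leans on a spread shared across genes. They also rest on the processing. Without a trend in the limma fit neither passed (adjusted p = 0.268 for Psap and 0.452 for Ctsb). On the signals as deposited, Psap was at -0.27 and did not pass (limma adjusted p = 0.271), and Ctsb was at 0.24. Grn and Cst3 were the members that passed by limma there, both higher with the 3' IVT Express kit (0.77 and 0.79, adjusted p = 0.000843 and 5.61e-05). Kit values on the deposited scale were not recentred on all genes, so they keep any general shift in signal between the kits' arrays. They are thus not on a like scale with the quantile-normalized values, and the cause of the changed calls was not tested. Over the alternatives run, Psap passed in 9 of 11 and Ctsb in 4 of 12. In the fit as reported the other 7 members did not pass (limma adjusted p = 0.0960 for Cst3 to 0.926 for Lgmn). Over the alternatives Cst3 passed in 3 of 11 and Grn in 2 of 12. Slpi, Ctss and Ctsd passed in 1 each, and Ctsl and Lgmn in 0. Of all genes, 6.72% were lower and 7.96% higher with the 3' IVT Express kit. Kit, amount of RNA and the cells labelled cannot be told apart here.

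Around these members, 154 further genes of the lysosomal and protease pathway were listed, of which 142 are on the array and 125 passed the filter. In the limma model without the kit, 0 of them rose and 0 fell at an adjusted p under 0.05, as for all 12645 genes (0% in each direction, smallest adjusted p = 0.306), while 2 had a higher and 6 a lower signal at an unadjusted p under 0.05, beside 397 and 445 of all genes. With the kit as a block, limma called 4 pathway genes higher and 13 lower, or 3.20% and 10.4%, beside 3.73% and 4.14% of all genes. That fit has 1 residual degree of freedom per gene and leans on a spread shared across genes. The median difference of the 125 was -0.15.

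The other cathepsins did not share a direction. Ctsh, an aminopeptidase cathepsin, had signals of 329 and 370 in the CD11b-positive arrays, against 184 and 249 in the CD11b-negative arrays. It was 1.62-fold higher (limma adjusted p = 0.644, and 0.00147 with the kit as a block). Ctsz, a carboxypeptidase cathepsin, was 1.32-fold higher (0.766, and 0.0183 with the block). Ctsk, the collagen-cutting cathepsin of osteoclasts, stood at 21.4 and 23.5 against 36.3 and 40.2, and Ctsw, a cathepsin of cytotoxic lymphocytes, at 150 and 153 against 292 and 165, CD11b-positive arrays first; neither passed with the block. Of 8 tested, 2 rose and 0 fell with the block, and their median was 0.06.

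Among receptors and sorting proteins, Sorl1, a sortilin-family receptor, had signals of 13.5 and 8.99 in the CD11b-positive arrays, against 41.8 and 30.5 in the CD11b-negative arrays. It was 2.76-fold lower (limma adjusted p = 0.610, and 0.0325 with the block), and its CD11b-positive signals lay near the low-signal filter. Gga2, a coat adaptor that sorts hydrolases out of the Golgi, was 1.41-fold lower (0.757, and 0.0406 with the block). Scarb2, which carries glucocerebrosidase to lysosomes, was 1.29-fold lower and Vps26a, a retromer subunit, 1.5-fold higher, neither passing either fit. Sort1, the progranulin receptor sortilin, named for its role and not by rule, had 36.5 and 17.3 in the CD11b-positive arrays, against 34.7 and 20.7 in the CD11b-negative arrays. These overlapped. Of the 19 tested, 2 fell and 0 rose with the block, and the median was 0.00.

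Of 35 lysosomal hydrolases and their cofactors, 5 fell and 2 rose with the block, with a median of -0.15. Ppt1, a thioesterase that removes palmitate from proteins, had signals of 262 and 383 in the CD11b-positive arrays, against 509 and 521 in the CD11b-negative arrays. It was 1.62-fold lower (limma adjusted p = 0.650, and 0.000848 with the block). Man2b1, an alpha-mannosidase, was 1.37-fold lower and Tpp1, a tripeptidyl peptidase, 1.41-fold lower (0.728 and 0.738, and 0.00643 and 0.00852 with the block). Fuca2, a fucosidase, and Aga, which splits sugars from asparagine, fell with the block as well, and Ifi30, a lysosomal thiol reductase, rose. Gm2a, an activator of ganglioside breakdown as the saposins are of other sphingolipids, went the other way. Its signals were 943 and 967 in the CD11b-positive arrays, against 753 and 607 in the CD11b-negative arrays (1.41-fold higher, limma adjusted p = 0.690, and 0.00395 with the block).

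Of 28 genes of the lysosomal membrane and proton pump, 2 fell and 0 rose with the block, with a median of -0.10. Atp6v0a1, a membrane subunit of the pump, was 1.59-fold lower (limma adjusted p = 0.618, and 0.00833 with the block) and Lamp2, a major membrane glycoprotein, 1.32-fold lower (0.798, and 0.0184 with the block). Laptm5, a membrane protein of blood cells, and Atp6v1b2, a catalytic-sector subunit of the pump, were at -0.24 and 0.40 and passed neither fit. Of 12 regulators of lysosomal genes, 0 passed either fit. Tfeb stood at 93.6 and 94.6 in the CD11b-positive arrays, against 135 and 99.2 in the CD11b-negative arrays. Flcn, Rragd and Fnip2, which link nutrient sensing to TFEB, were at -0.36, -0.52 and 0.70. Both CD11b-negative signals of Fnip2, 8.78 and 9.19, lay below the low-signal filter. Not all tested pathway genes had a promoter sequence available. Among those that did, genes with TCACGTG in the promoter had nearly the same median difference (-0.16, 26 genes) as those without (-0.15, 75 genes).

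Of 16 tested cystatins and other protease inhibitors, 2 fell with the block and 0 rose. The list's median of -0.47 came with a split by kit, at -0.06 with the One-Cycle and -0.50 with the 3' IVT Express kit. Spint2, a Kunitz-type inhibitor of membrane serine proteases, was 1.34-fold lower (limma adjusted p = 0.880, and 0.00607 with the block), with signals that overlapped across kits. Serpinb6a, an intracellular serpin, was 1.53-fold lower (limma adjusted p = 0.756, and 0.0305 with the block). Spint1, an epithelial inhibitor of membrane serine proteases, was 1.68-fold lower. Wfdc18, a small protein with the same type of domain as Slpi, was at -1.22, but at -2.25 with the One-Cycle and -0.19 with the 3' IVT Express kit. Its One-Cycle CD11b-positive signal, 5.50, lay below the filter. Timp2, an inhibitor of metalloproteases, was at 0.95. Spint1, Wfdc18 and Timp2 passed neither fit. Of the enzymes that Slpi blocks, Ctsg lay below the filter, and Elane overlapped between the fractions, at 8.03 and 27.2 in the CD11b-positive arrays, against 23.1 and 19.9 in the CD11b-negative arrays. Of 7 tested proteases of leukocyte granules, all but Cpa3 serine proteases, Gzmb and Gzma fell with the block, at 2.06-fold and 1.5-fold lower (limma adjusted p = 2.09e-06 and 0.000274 with it, and 0.878 and 0.902 without). Both are granzymes of cytotoxic lymphocytes, and both overlapped between the fractions across kits. Gzmb had signals of 459 and 150.5 in the CD11b-positive arrays, against 1036 and 288 in the CD11b-negative arrays. Of 11 tested markers of T, NK and innate lymphoid cells, 3 fell with the block (Cd8a, Nkg7 and Ccl5) and 0 rose, and their part in the granzymes' difference was not tested. Cpa3, a mast cell carboxypeptidase, was at 0.32.

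**Figure D4:**
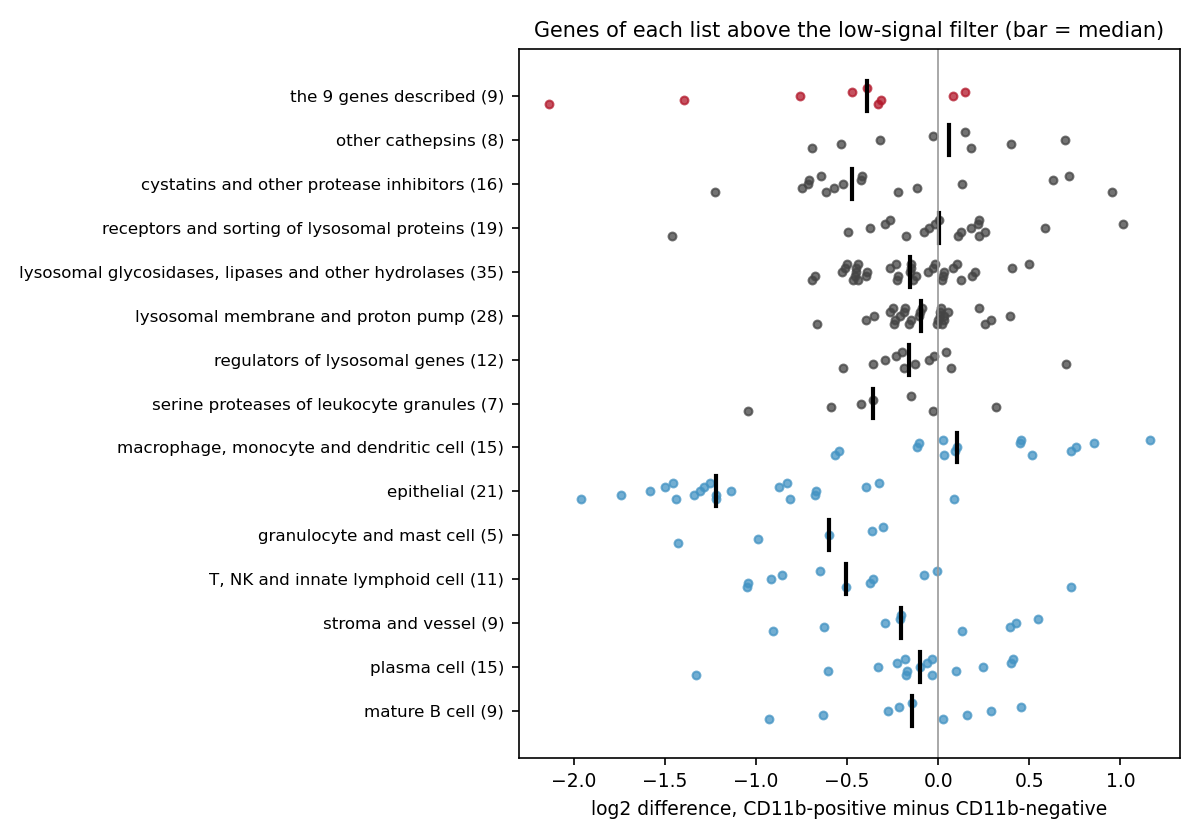
Log2 difference (CD11b-positive minus CD11b-negative) of every gene above the low-signal filter in each list, 1 point per gene, with black bars for medians; the 9 described genes are red, further pathway genes grey and cell type markers blue, and the number of genes is in brackets. Grn and Slpi lie left of nearly all pathway genes, whose median is -0.15. Slpi lies within the range of the epithelial markers, whose median is -1.22, and Grn just left of the lowest of them, Agr2 at -1.96.

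Facts of the arrays bear on these values. The sorted gene Itgam, which encodes CD11b, stood at 189 and 109 in the CD11b-positive arrays, against 28.3 and 15.8 in the CD11b-negative arrays, as labelled. All 15 plasma cell markers were above the filter, with Igha at 11703 and 11010.3 in the CD11b-positive arrays, against 12633 and 11703 in the CD11b-negative arrays. Quantile normalization gives every array the same set of signals, and Igha took values from the top of that set. Its likeness between the fractions is thus no measure of plasma cell content. Sdc1, the plasma cell surface marker, had 3472 and 4155 in the CD11b-positive arrays, against 5626 and 5941 in the CD11b-negative arrays. With the block 3 of the 15 plasma cell markers fell (Sdc1, Tnfrsf13b and Cd93) and 2 rose (Eaf2 and Sub1). Epithelial markers, 21 of 22 above the filter and none at 0, had a summed signal of 4630.4 and 3360.1 in the CD11b-positive arrays, against 8420 and 8244 in the CD11b-negative arrays. With the block 17 of them fell and 0 rose. Without it 0 of them passed, as for all genes tested, while 18 were lower at an unadjusted limma p under 0.05, beside 445 of all genes. Of the 21, 19 were lower and 0 higher with both kits, beside 30.5% and 31.6% of all genes. Epcam stood at 377 and 384 in the CD11b-positive arrays, against 600.01 and 613 in the CD11b-negative arrays, and Krt8 at 425 and 253 in the CD11b-positive arrays, against 952 and 914 in the CD11b-negative arrays. The within-kit medians of these markers were -0.96 and -1.41 with the One-Cycle and the 3' IVT Express kit. Intestinal epithelium also makes Slpi, Grn and Cst3, and the part of these cells in the members' differences was not tested.

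Markers of macrophages, monocytes and dendritic cells, which are rich in cathepsins and cystatin C, had a median difference of 0.11, with within-kit medians of 0.68 (One-Cycle) and 0.16 (3' IVT Express). Of 20 such markers, 15 were above the filter and none was at 0, and their summed signal was 966 and 696 in the CD11b-positive arrays, against 675 and 553 in the CD11b-negative arrays. Of the 15, 7 were higher and 3 lower with both kits. With the block Itgax rose (1.81-fold), and none fell. C1qb and Cd14, chosen after their values were seen, were 2.24-fold and 1.65-fold higher without overlap but did not pass. Mertk, chosen in the same way, was 1.48-fold lower without overlap and did not pass either. Csf1r, Adgre1 and Cd68 overlapped between the fractions. Of the markers below the filter, Aif1 was higher with both kits, at 19.6 and 15.5 against 3.54 and 2.93. The others below it had opposite signs in the kits. Markers of T, NK and innate lymphoid cells, 11 of 12 above the filter, summed to 998 and 590 in the CD11b-positive arrays, against 2244 and 861 in the CD11b-negative arrays, and their within-kit medians were -1.05 and -0.27. Of the 11, 6 were lower with both kits, 1 (Cd4) was higher with both and 4 had opposite signs. Both 3' IVT Express signals of Cd4, 5.96 (CD11b-positive) and 5.75 (CD11b-negative), lay below the filter. Markers of granulocytes and mast cells, 5 of 10 above the filter, summed to 148 and 164 in the CD11b-positive arrays, against 271 and 256 in the CD11b-negative arrays. All 5 above the filter were lower with both kits, beside 30.5% of all genes, and their median was -0.60. Prg2, at 28.7 and 33.2 against 86.2 and 90.0, was the 1 that fell with the block. Ltf and Kit overlapped between the fractions, and the 3' IVT Express signals of Ltf, 6.38 and 8.90, lay below the filter. Of the markers that stayed below the filter, Epx, S100a9 and Ms4a2 were higher with both kits, at low signals. Fcer1a was lower with both, and S100a8 had opposite signs. The median differences of mature B cell and of stromal and vessel markers were -0.15 and -0.20. Mature B cell markers had within-kit medians of -0.45 (One-Cycle) and 0.16 (3' IVT Express). Of the 9 tested, Cd79a fell and Cd74 rose with the block, and both overlapped between the fractions. The part of these cells in the members' differences was not tested.

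The genes whose profile over the 4 arrays lay nearest to that of Grn, by the Euclidean distance between log2 signals less their mean, were Sprr2d (distance 0.14), Kcnk1 (0.20), Aif1l (0.34), Lhb (0.52) and Tlr8 (0.57). Sprr2d is a small proline-rich protein of epithelia, Kcnk1 a potassium channel and Tlr8 a receptor for RNA in endosomes. Of these 5, only Aif1l had both CD11b-positive signals clear of the low-signal filter, at 43.4 and 56.5, against 171 and 256 in the CD11b-negative arrays. Nearest to Slpi were Slc27a2 (0.15), Errfi1 (0.15), Tcea3 (0.17), Defa31 (0.20) and Bmp4 (0.21). Of these 5, Slc27a2 and Bmp4 had both CD11b-positive signals, and Tcea3 1 of them, below the low-signal filter, and the other of Tcea3 was close to it. Errfi1, a feedback inhibitor of the EGF receptor, had 42.5 and 37.03 in the CD11b-positive arrays, against 113 and 111 in the CD11b-negative arrays. Defa31, a Paneth cell defensin, had 169 and 183 in the CD11b-positive arrays, against 468 and 448 in the CD11b-negative arrays. With 4 arrays such likeness is a description only.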

How the data were processed

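The deposited intensity values, 1 linear signal per probe set and array, come from the authors' processing, for which the submitters' processing notes name MAS5 and Affymetrix Expression Console. No version or scaling target is stated there. The 64 control probe sets were left out. Of the others, 34945 name 1 gene in the platform annotation, 932 several and 9160 none. Signals were quantile-normalized, 3 was added and log2 taken, which makes differences of weak genes look smaller. The filter kept probe sets whose mean log2 signal exceeded the 40th percentile, and the brightest per gene was used, giving 12645 genes. The test was lmFit and eBayes with trend (limma 3.58.1, R 4.3.3, 2-sided, Benjamini-Hochberg). Its code was also run on data simulated with independent noise of the fitted spread. Such data cannot show how well the p-values hold here. For single values, exact permutation of 4 arrays reaches no p below 0.333.

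The members, the pathway and marker lists and the settings were chosen with earlier results of these data known. Named genes are the members, up to 4 genes per pathway list by smallest p without the block, defining markers, and the 5 nearest profiles each of Grn and Slpi; Sort1 and genes at a count of 5 or fewer were added after values were seen. The labels use each labelling kit for 1 array of each fraction; deviations of same-kit arrays from the fraction means correlated across genes (r = 0.387), so the kit is the pairing used as a block. Alternatives were other pseudocounts, scalings, filters, probe set choices, the block, no trend and leaving out arrays. Protein sequences are not used here.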

Additional observations from a re-analysis of the deposited data

Results flagged for a closer look

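Of the members' probe sets above the filter, 3 had differences (CD11b-positive minus CD11b-negative) of opposite sign in the 2 labelling kits, a split that was not tested because each kit holds 1 array per fraction. Ctsb 1448732_at was at 0.21 with the 3' IVT Express kit and -0.32 with the One-Cycle kit. Ctsb 1444987_at was at -0.13 and 0.38 in the same order of kits. Ctsl 1451310_a_at was at 0.16 and -0.0025, the last close to 0.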

How the results depend on the processing

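The number of arrays limits every value. Taking the kit as a replicate block, limma called 472 genes higher and 524 lower, and 13 pathway genes lower, against 0 of each without it; the block changed no member, since none was tested. The other settings without the block gave 0 calls, except when 1 array was left out: genes higher then ran from 0 to 2 and genes lower from 0 to 22 (2 and 22 without CD11b-positive replicate 1), with kits uneven between the fractions. The members' median ran from -0.64 (without CD11b-negative replicate 2) to -0.27 (without CD11b-negative replicate 1). Relative to all genes, the pathway median was -0.0853 on the signals as deposited. With arrays left out, Psap was at 0.07 (CD11b-positive replicate 2 out) and 0.12 (CD11b-negative replicate 1 out), and Ctsl at -0.08 (CD11b-positive replicate 1 out) and -0.16 (CD11b-negative replicate 2 out). Ctsl was also at -0.0025 within the One-Cycle kit; relative to all genes, no other member changed sign under the alternatives run. Averaging its probe sets put Grn at -1.82, and it was at -1.51 without the probe sets marked _x_at, _s_at or _a_at, a setting that has no value for Psap, Cst3, Ctsd and Ctsl. Members that differed between the kits numbered 2, but 1 with a pseudocount of 1, without a filter or after averaging probe sets, 0 without a trend, and 6 after centring on the median; the cause was not tested. The number was also 0 without the marked probe sets, where Psap could not be called because all its probe sets are marked. On the signals as deposited the number was again 2, but with Grn and Cst3 in place of Psap and Ctsb. With a common trimmed mean it was also 2, with Cst3 in place of Ctsb. Kit values were not recentred. A filter on linear means, added after seeing the data, gave the same counts. The kit comparison could not be fitted with 3 arrays.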
